A study of Mus musculus with 346 samples.

Results

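Alb, Afp and Gc, which encode serum albumin, alpha-fetoprotein and the vitamin D-binding protein, were read out of the gene table by their symbols, 3 genes of 20474. The table held 346 single cells of Tg(Prox1-EGFP) mouse embryos, in which green fluorescent protein (GFP) reports the activity of Prox1, a transcription factor gene of the early liver and pancreas. All cells carried this transgene and were sorted for GFP, and sequenced with Smart-seq2, which reads whole transcripts of single cells. The groups were 82 foregut cells of embryonic day (E) 8.5 (plate 1A), 86 cells of the E10.5 dorsal pancreatic bud (48 on plate 2A, 38 on plate 2B), 27 cells of the E10.5 ventral pancreatic bud (plate 3), 78 cells of the E10.5 liver bud (plate 5A) and 73 cells of the E14.5 pancreas (plate 4A). The labels name no embryo and no strain. Each group therefore counted as 1 sample, nothing was tested between groups, and apart from the dorsal bud the plate and the group cannot be told apart.

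The members belong to 1 gene family of secreted carriers, which arose by duplication and have a common protein fold. Albumin carries fatty acids, hormones and metals in the blood and becomes the most abundant plasma protein of the adult. Alpha-fetoprotein is its fetal counterpart, made by yolk sac and fetal liver and shut down after birth, and is a textbook marker of hepatoblasts, the progenitors of hepatocytes and bile duct cells. The vitamin D-binding protein carries vitamin D metabolites and scavenges actin, and is made mainly by the liver in the adult.

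On GRCm38 all members lie on chromosome 5 (GENCODE M21). Alb spans 90460897 to 90476602 on the plus strand and has 15 exons in its longest transcript. Afp follows in the same orientation from 90490737 to 90508907, also with 15 exons, and starts 14.135 kb after the end of Alb. Afm, which encodes afamin, and 5830473C10Rik, listed as Albfm1 in RefSeq, come next. Gc lies on the minus strand from 89417522 to 89457898, has 13 exons and is separated from Alb by 1003 kb, with Ankrd17, Cox18, Adamts3 and Npffr2, the last of which has no row in the expression table, in between. The 140 bases before the RefSeq start of each member (GRCm38.p6) are printed to show where the core promoter letters of each gene lie. Capitals mark CCAAT, on either strand, and TATAAA. The RefSeq start lies 27 bases upstream of the GENCODE start given above for Alb and 23 bases for Afp, and is the same for Gc. Distances counted from the GENCODE start would be longer by these numbers. The bases between the RefSeq and the GENCODE start of Alb and of Afp were neither printed nor searched.
Alb promoter, chr5:90460730-90460869, plus strand: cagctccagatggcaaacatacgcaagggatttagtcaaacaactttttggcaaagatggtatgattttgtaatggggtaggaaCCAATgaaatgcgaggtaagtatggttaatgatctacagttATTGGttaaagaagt
Afp promoter, chr5:90490574-90490713, plus strand: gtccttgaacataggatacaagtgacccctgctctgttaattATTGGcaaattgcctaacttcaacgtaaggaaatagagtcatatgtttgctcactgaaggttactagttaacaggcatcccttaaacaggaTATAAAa
Gc promoter, chr5:89457899-89458038, minus strand: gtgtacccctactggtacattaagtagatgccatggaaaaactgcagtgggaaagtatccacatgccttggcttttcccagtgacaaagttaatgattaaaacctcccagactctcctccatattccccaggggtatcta

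Counted from the RefSeq starts, TATAAA stood 7 bases before the start of Afp, and CCAAT, on the other strand, 98 bases before it. Alb had CCAAT from 56 bases before its start and, on the other strand, from 15 bases before it. The only such letters of Gc in the 250 bases before its start were CCAAT from 225 bases before it, outside the stretch printed. In that window, searched on both strands in the members, Afm and Albfm1, TATAAA occurred in 3 of 5 promoters, in 12.4% of 32851 mouse promoters and in 4 of 14 genes of the list of plasma proteins with a promoter in the table. CCAAT occurred in 4 of 5, in 33.8% of all and in 3 of 14. The letters AGATAA, of the type bound by GATA factors, were in none of the 5 and in 9.99% of all. The same held for the FOXA type, TGTTTAC, with 3.17% of all promoters. The match is one of letters only.

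Values are log2(normalized reads + 1), where 0 is no read, and a gene was called detected at 5 or more normalized reads. Total reads per cell ran from 510222 to 3431728, with group medians of 811359 to 1029064 outside the liver and 2510705 in it. The groups differed in the cell types they held. At least 3 of 7 epithelial genes were detected in 12 of 82 foregut, 67 of 86 dorsal, 27 of 27 ventral, 13 of 78 liver and 13 of 73 E14.5 cells. In the liver this count does not give the share of hepatic cells, since 35 of the 65 cells below the cut had Afp. Markers of another cell type were present (at least 3 genes of 1 list) in 75 foregut cells, of which 60 by neural genes, and in 59 E14.5 cells, of which 58 by mesenchymal genes, although the labels call these plates foregut endoderm and pancreatic epithelium. The same held for 23 dorsal, 1 ventral and 30 liver cells. A low group mean of a member can therefore mean few cells of the right type, and levels within positive cells are given beside it.

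Afp and Gc were both present at E8.5, while Alb was found only among E10.5 cells. Afp was the most widespread member. It was detected in 4 of 82 foregut cells at E8.5 (4.88%, exact 95% interval 1.34 to 12.02%) and in 13 of 86 dorsal bud cells (15.1%, 8.30 to 24.5%). It was detected in 19 of 27 ventral bud cells (70.4%, 49.8 to 86.2%), in 48 of 78 liver cells (61.5%, 49.8 to 72.3%) and in 1 of 73 E14.5 cells (1.37%, 0.0347 to 7.40%). The shares of ventral bud and liver had overlapping intervals. These intervals cover counting error only, since cells of 1 plate are not separate embryos and amplified reads are not separate molecules.

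Gc was rarer and had a different order of groups. Its highest share was in the ventral bud, with 8 of 27 cells (29.6%, 13.8 to 50.2%). The dorsal bud followed with 9 of 86 (10.5%, 4.90 to 18.9%) and the liver with 4 of 78 (5.13%, 1.41 to 12.6%). It was found in 2 of 82 foregut cells (2.44%, 0.297 to 8.53%) and in 2 of 73 E14.5 cells (2.74%, 0.334 to 9.55%). The intervals of neighbouring groups in this order overlapped.

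Alb was nearly confined to the liver plate. It was detected in 43 of 78 liver cells (55.1%, 43.4 to 66.4%) and in 1 of 27 ventral bud cells (3.70%, 0.0937 to 18.97%). None of 82 foregut, 86 dorsal or 73 E14.5 cells had it, which allows shares of up to 3.66%, 3.49% and 4.11%. No cell of these groups held a single Alb read. The 2 dorsal plates gave alike shares of Gc, 5 of 48 cells on 2A and 4 of 38 on 2B, and Afp was found in 9 of 48 on 2A and in 4 of 38 on 2B.

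**Figure D1:**
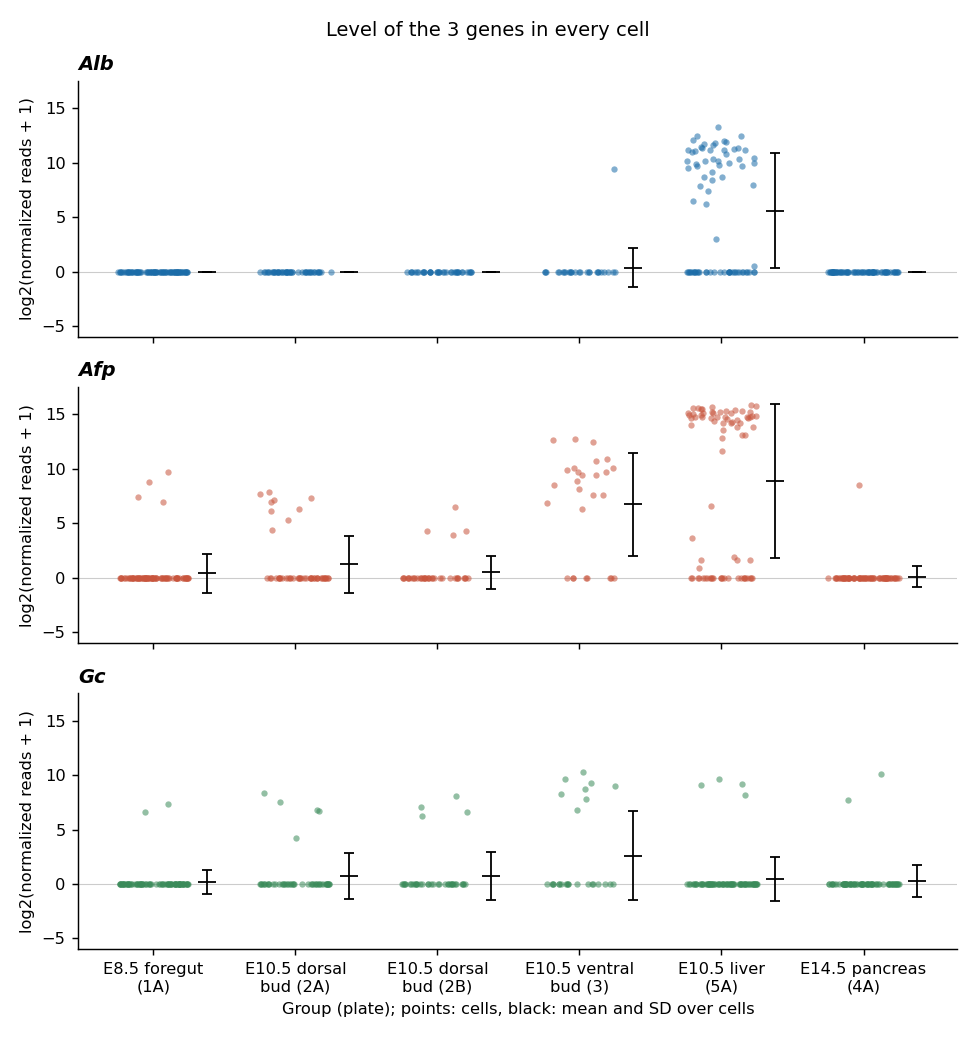
Level of Alb, Afp and Gc, as log2(normalized reads + 1), in every cell (points, spread sideways only to be seen) of each plate, with the mean and SD over cells in black. Alb is high only in the liver plate apart from 1 ventral cell, Afp stands mostly above 10 in the positive liver cells and lower in the ventral bud, and Gc cells are few on every plate.

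The level of Afp spanned a wide range over the groups. Its mean was highest in the 78 liver cells, at 8.89 ± 7.07 (SD over cells), followed by 6.73 ± 4.71 for the 27 ventral cells. The 86 dorsal cells had 0.91 ± 2.23, the 82 foregut cells 0.40 ± 1.79 and the 73 E14.5 cells 0.12 ± 0.99. The step from dorsal to ventral bud, 5.82, was larger than the SD of either group. The step from ventral bud to liver, 2.16, was smaller than both, as were those among the other 3 groups. With the liver cells that had plasma protein genes alone, that step was 7.78. In Afp-positive cells the lowest, median and highest values were 3.69, 14.79 and 15.84 in the liver and 6.30, 9.70 and 12.75 in the ventral bud. They were 3.91, 6.31 and 7.85 in the dorsal bud, where the median was 6.96 on plate 2A and 4.32 on plate 2B. The 4 foregut cells had 6.91, 7.39, 8.77 and 9.70, and the E14.5 cell had 8.49. Thus the 13 positive dorsal cells overlapped the lower part of the ventral range, while the median liver cell lay above the highest ventral cell. As a share of all reads of a cell, Afp took a median of 1.70% in the positive liver cells, with a maximum of 3.62%, against 0.0696% in the ventral and 0.00840% in the dorsal cells.

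Alb reached a mean of 5.60 ± 5.27 over the 78 liver cells and 0.35 ± 1.81 over the 27 ventral cells, a difference of 5.25 that was just under the SD of the liver. Its lowest, median and highest values in the 43 positive liver cells were 2.95, 10.32 and 13.25, and the ventral cell had 9.40. That cell lay within the range of the liver. Gc had means of 2.59 ± 4.10 in the ventral bud, 0.72 ± 2.14 in the dorsal bud, 0.46 ± 2.00 in the liver, 0.24 ± 1.47 at E14.5 and 0.17 ± 1.09 in the foregut, and each step in this order was smaller than the larger SD. In Gc-positive cells the lowest, median and highest values were 6.77, 8.88 and 10.27 in the ventral and 4.18, 6.82 and 8.34 in the dorsal bud. The 4 liver cells had 8.16, 9.07, 9.17 and 9.62, the foregut cells 6.61 and 7.37 and the E14.5 cells 7.68 and 10.10. The 4 liver cells lay within the range of the ventral cells.

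Counted by a difference of means of at least 1, which is no test, 2 of the 3 members, Alb and Afp, were higher in the liver than in the ventral bud, against 11.4% of 8297 genes compared, and Gc was lower, by 2.12, against 29.6%. From the dorsal bud to the liver both members that reached a mean of 1 in either group, Alb and Afp, were higher, against 6.89% of 9607 genes. From the dorsal to the ventral bud both such members, Afp and Gc, were higher, by 5.82 and 1.87, against 3.88% of 9571 genes. From the foregut to the ventral bud the same pair was higher, by 6.33 and 2.42, against 4.95% of 9724 genes. Without cells that held markers of another type, which left 7 foregut and 26 ventral cells, these differences were 2.31 and 0.37, so that Gc no longer counted as higher. The medians over all genes compared were -0.49, -1.10, -0.71 and -1.15 in these comparisons. The differences of the members compared had the opposite sign, except for that of Gc between ventral bud and liver. Gc, not compared between dorsal bud and liver, differed there by -0.25, also with the sign of the median. These comparisons share groups and are no independent support for each other.

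In single cells the members formed few combinations. No cell of the 346 had Alb without Afp: all 44 Alb cells also had Afp, and they were 51.8% of the 85 Afp cells. Afp and Gc met in 12 cells, 14.1% of the Afp cells and 48% of the 25 Gc cells. In the liver 39 cells had Alb and Afp, 4 had all members, 5 had Afp alone and 30 had none. In the ventral bud 16 cells had Afp alone, 6 Gc alone, 2 Afp with Gc, 1 Alb with Afp and 2 none. In the dorsal bud 9 cells had Afp alone, 5 Gc alone, 4 both and 68 none. In the foregut the counts were 3, 1, 1 and 77. At E14.5 they were 0, 1, 1 and 71.

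**Figure D2:**
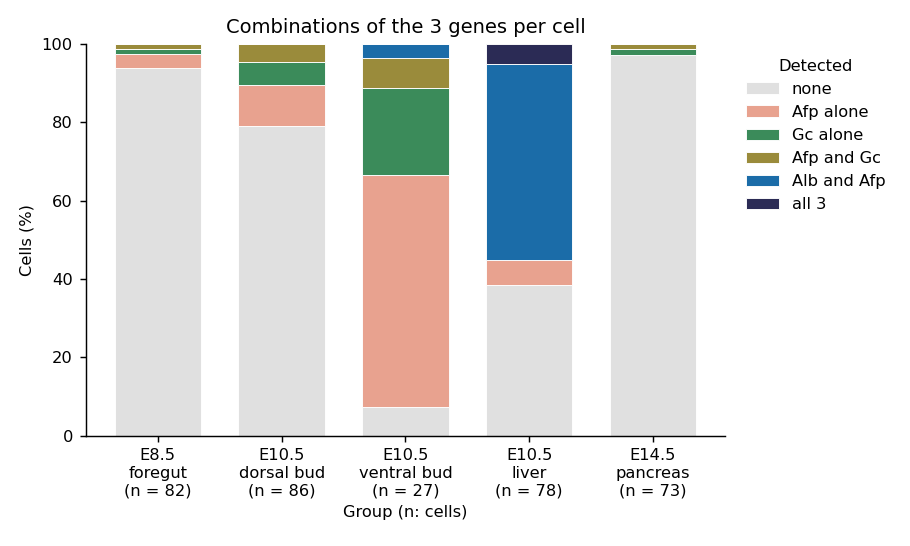
Share of cells (%, vertical axis) with each combination of the 3 genes at the limit of 5 normalized reads, for each group (n in cells). The liver bar is mostly Alb with Afp or none, while the ventral bar is mostly Afp alone or Gc alone.

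The liver plate was split by the plasma protein genes, 17 genes for other secreted liver proteins such as fibrinogen chains, apolipoproteins and transferrin. In 47 cells 7 to 16 of them were detected, in 31 cells at most 2, and no cell lay between. Afp was detected in all 47 cells with plasma protein genes, at a mean of 14.51 ± 1.45, and in 1 of the other 31, at 3.69. Of those 31 cells, 5 more held 1 to 5 reads of Afp, below the limit, and 1 held 1 read of Alb. Alb was detected in 43 of the 47 cells, at 9.27 ± 3.41 over all of them, and Gc in 4. Prox1 was detected in all 47 cells and in 19 of the 31, and 24 of the 78 liver cells had mesenchymal and 10 cardiac markers.

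Scaled to length, Afp was among the highest plasma protein genes of these 47 cells. By the median of normalized reads per kilobase of exon, Apoa2, an apolipoprotein gene, ranked 1 of 20 genes with 19831, Afp 2 with 8477 and Rbp4, the gene of the retinol carrier, 3 with 8123. Alb ranked 11 with 487, and Gc had a median of 0. The ranks of the members were the same with the longest transcript as length. Alb also varied more from cell to cell than Afp, which had the highest mean log2 value of the 20 genes. The SD of Alb in the 43 positive cells was 1.94, against 1.45 for Afp in 47. Without the 1 cell of 7 plasma protein genes these were 1.5995 and 0.84. The plasma protein genes nearest to Alb by mean, Trf, Serpind1 and Serpinc1, had SDs of 0.69, 1.17 and 1.71 over all their positive cells. The 4 cells with no Alb read all held Afp and plasma protein genes. Their Afp values were 12.80, 14.65, 15.42 and 15.84, and they held, in the same order, 13, 13, 16 and 10 plasma protein genes. The cell with 15.84 had the highest Afp value of the plate. Ahsg, the gene of the fetal plasma protein fetuin-A, was detected in none of the 47 cells and Apob in 6.

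Within single cells too, Afp exceeded Alb per kilobase with few exceptions. Per kilobase of exon (union of exons: 2342 bases for Alb, 3368 for Afp, 1845 for Gc), Afp was higher in 41 of 43 cells with both. The median ratio of Afp to Alb was 14.04 and ran from 0.612 to 356. With the longest transcript as length, Afp was higher in 42 of 43, with a median ratio of 19.9. In the 4 liver cells with all members, Afp exceeded Gc in 4 of 4, with a median ratio of 37.9, and Alb exceeded Gc in 2 of 4. In the few pancreatic bud cells with both Afp and Gc, the order was mostly turned. Per kilobase, Gc was above Afp in both ventral cells with that pair and in 3 of 4 dorsal cells. Over all positive ventral cells, the order of the medians depended on the length used. With the longest transcript they were 402 for Afp and 263 for Gc, while with the union of exons Gc was slightly higher. In the positive dorsal cells Gc had the higher median with both lengths, at 60.8 against 23.2 with the union of exons.

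**Figure D3:**
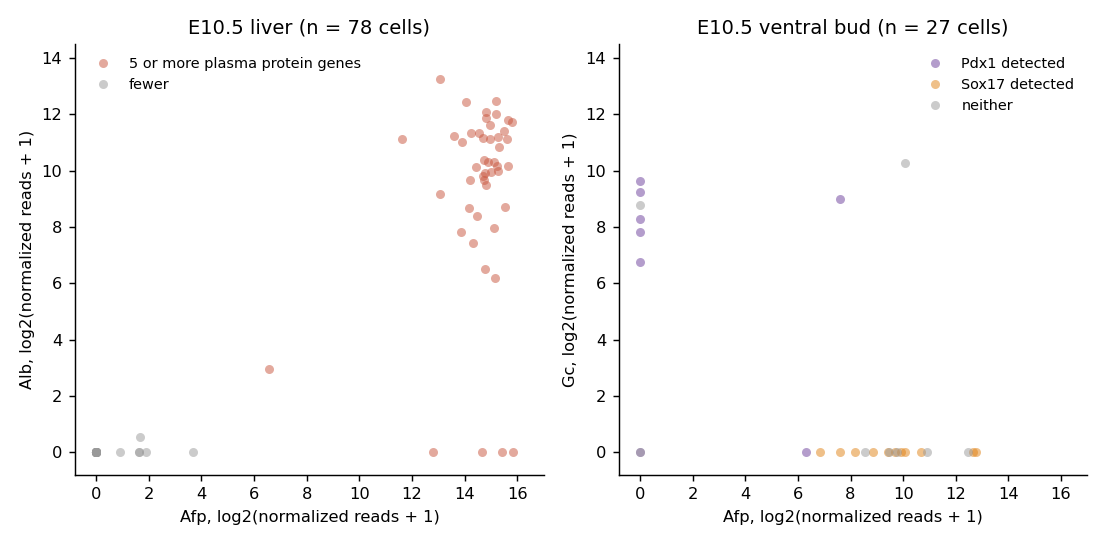
Left, Alb against Afp in the 78 liver cells, coloured by whether at least 5 plasma protein genes were detected. Right, Gc against Afp in the 27 ventral bud cells, coloured by Pdx1 or Sox17. All axes are log2(normalized reads + 1). In the liver, the cells with plasma protein genes stand at high Afp with Alb from 0 to 13.25; in the ventral bud most cells lie along 1 axis or the other.

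Over all 78 liver cells, the genes most like Afp by Pearson correlation of log2 values were Fgb (0.99), Ambp (0.99), Rbp4 (0.99), Serpina1b (0.98) and Fgg (0.98). Those most like Alb were Fgg (0.88), Afp (0.87), Ambp (0.87), Serpina1b (0.87) and Fgb (0.87). The points share 1 plate and, as above, fall into a high and a low set, which such a value mostly restates. Within the 47 cells, the correlation of Alb with Afp was 0.22. There Afp went with Rbp4 (0.82), Ttr, the thyroid hormone carrier (0.82), and Ldha (0.81), but 1 cell set most of this. That cell had Afp 6.57, Alb 2.95 and only 7 plasma protein genes, and without it the values were 0.29, 0.33 and 0.34, and that of Alb with Afp was -0.01. Gc was most like Gstm3 (0.60), Fam172a (0.52), Rbpj (0.51), Prps1l3 (0.49) and Nedd1 (0.46), which rests on 4 positive cells.

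**Figure D4:**
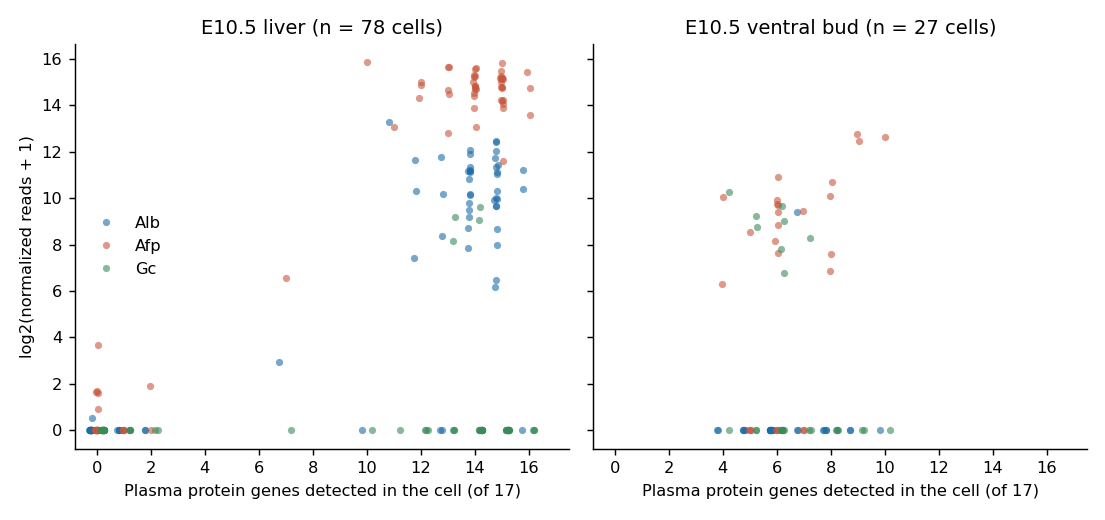
Level of each member, log2(normalized reads + 1), against the number of 17 plasma protein genes detected in the same cell, for the liver (left) and the ventral bud (right), with the 3 genes set slightly apart sideways. Liver cells fall into a low set with at most 2 of these genes and a high set with 7 to 16, while all ventral cells have 4 to 10.

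In the ventral bud Afp and Gc marked largely different cells. All 27 cells held 4 to 10 plasma protein genes, and the correlation of Afp with Gc over them was -0.59. The other genes set beside them here were chosen after their values had been seen. Pdx1, the transcription factor gene of pancreatic progenitors, was detected in 6 of the 8 Gc cells and in 2 of the other 19. Cpa1, a carboxypeptidase gene of early pancreatic and acinar progenitors, was detected in 7 of 8 against 1 of 19, and Arg1, which encodes an arginase, in 8 of 8 against 4 of 19. Sox17, a transcription factor gene of the biliary and endodermal lineage, was detected in none of the 8 Gc cells and in 11 of the other 19. No cell had both Pdx1 and Sox17.

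The 19 Afp cells gave the counterpart. Sox17 was detected in 11 of them and in none of the other 8, and Pdx1 in 2 against 6 of 8. Hhex, a transcription factor gene needed for the liver and ventral pancreas, was found in 15 of 19 against 4 of 8, and Afm in 4 against 0. The mean number of 12 pancreatic progenitor genes was 3.16 in Afp cells and 6.25 in the others, and 6.88 in Gc cells against 2.89 in the cells without Gc. The 3 cells above 12 in Afp held 9, 9 and 10 plasma protein genes, the highest numbers of the plate. The cell with Alb was one of the Afp cells, at 9.46, and had neither Pdx1, Sox17 nor Hhex.

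Ventral cells with Afp and Gc together were 2 in number. The first had Afp 7.62 and Gc 9.002 and also Pdx1 and Hhex, and the second had Afp 10.05 and Gc 10.27 and neither. Over the 27 cells, Afp was most like Apoa2 (0.69), Eif3h (0.68), Sod1 (0.68), Kitl (0.66) and Reln (0.64). The same measure for Gc, added after the data had been seen, gave Atp7b (0.83), Ptpn13 (0.80), Slc9a3r2 (0.79), Parm1 (0.75) and Arg1 (0.75). Neither Afp (0.01) nor Gc (0.01) went with total reads. Only 1 ventral cell had markers of another cell type. Whether 2 cells shared a well was not tested.

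In the dorsal bud the members sat in epithelial cells. All 13 Afp and all 9 Gc cells had at least 3 epithelial genes, which is 13 and 9 of 67 such cells, and none of the 19 other cells had either. Of the Gc cells 8 of 9 had Pdx1 (26 of the other 77), 9 of 9 had Sox9 and Onecut1 (50 and 28 of 77) and 8 of 9 had Nkx6-1 (14 of 77), all progenitor transcription factor genes. None of them had the glucagon gene Gcg or the endocrine factor gene Isl1, which 15 and 42 of the other 77 cells had. Afp was less tied to 1 cell state. Of its 13 cells 8 had Pdx1 (26 of the other 73), 3 had Gcg (12 of 73) and 4 had the peptide YY gene Pyy (19 of 73). In the 3 cells with Gcg, at 14.87 to 16.22, Afp was at 6.48 to 7.15. The 4 cells with both Afp and Gc held 3 to 6 plasma protein genes.

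At E8.5 the few positive cells had some genes in common. The 5 foregut cells with Afp or Gc all had Hhex, Epcam, an epithelial adhesion gene, and Ttr. Other genes were in only part of the 4 Afp cells: Cdh1 in 3, Sox17 in 2, Foxa2 in 1 and Hnf4a in 1. Hhex was detected in 5 of the 77 foregut cells with neither. None of the 5 had neural markers, and Rfx4, a neural factor gene, was detected in none of the 4 Afp cells and in 52 of the other 78. Of the 12 foregut cells with at least 3 epithelial genes, 4 had Afp (33.3%, 9.92 to 65.1%) and 2 had Gc, while none of the other 70 had either. Pdx1 was detected in no foregut cell.

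At E14.5 only 2 cells had a member. The first had Afp 8.49 and Gc 10.10 with the acinar gene Cpa1 at 13.50, Ptf1a and Pdx1. The second had Gc 7.68 with Neurog3, the endocrine progenitor gene, at 11.52. Neither had Col1a1, a collagen gene detected in 58 of the 71 cells without Gc. In the cells with at least 3 epithelial genes this is 1 of 13 for Afp and 2 of 13 for Gc, and none of the 60 other cells had either.

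The neighbours in the locus had patterns of their own. Afm was detected in 4 of 27 ventral and 18 of 78 liver cells and in no cell of the other groups, with means of 1.28 ± 3.18 and 1.83 ± 3.49. All 18 liver cells were among the 47 with plasma protein genes, and all 4 ventral cells had Afp. 5830473C10Rik was detected in 3 liver cells only. Rassf6, beyond it, was found in 9 liver cells, all among the 47, and in 1 to 5 cells elsewhere. Ankrd17, next to Alb on the other side, was broadly expressed, with means from 4.97 at E14.5 to 6.31 in the dorsal bud. Cox18 was highest in the foregut (2.88 ± 3.02), as was Adamts3 (1.02 ± 2.14), which was detected in no ventral and no liver cell. Slc4a4, beyond Gc, was highest in the ventral bud (2.40 ± 3.39), where Gc was highest too.

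**Figure D5:**
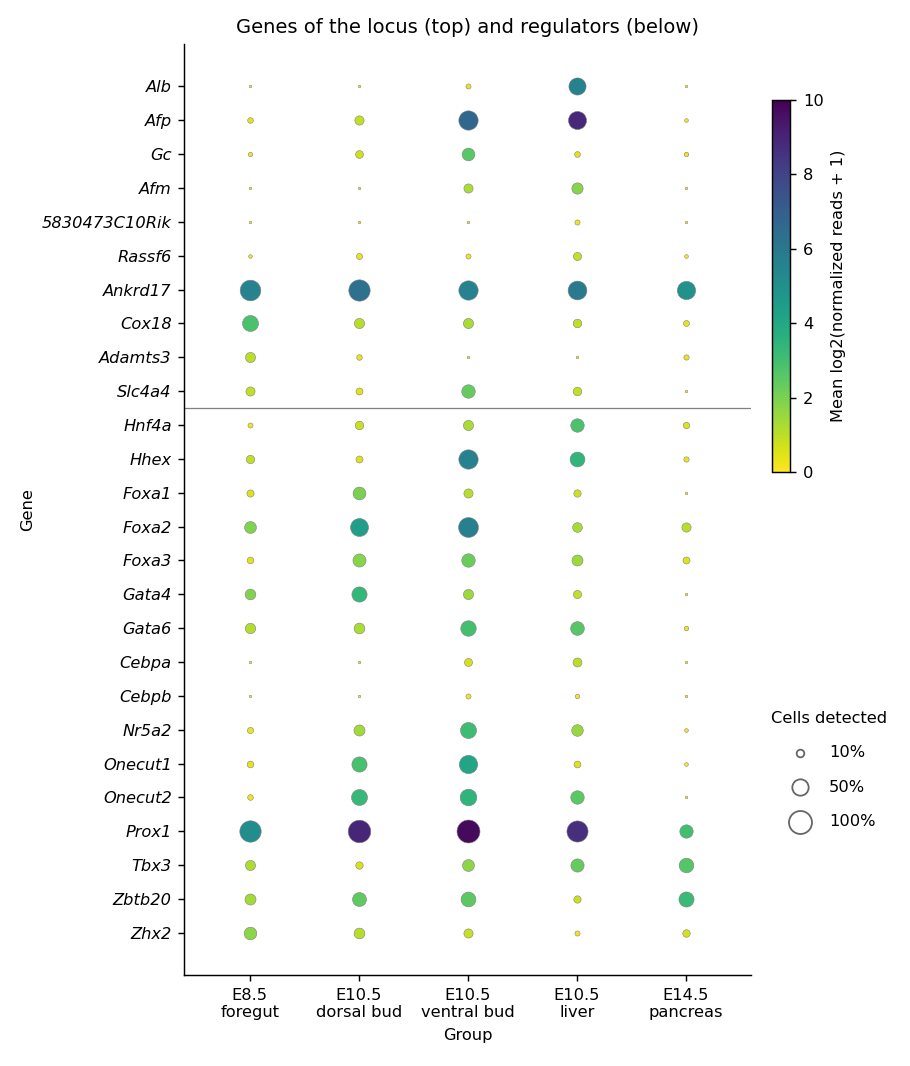
Mean log2(normalized reads + 1) (colour) and share of cells with the gene (area of the circle) for the genes of the locus, above the line, and for 16 regulators, below it, in each group. Afm goes with Alb and Afp to liver and ventral bud, Ankrd17 is present everywhere, and Foxa2 and Onecut1 are lower in the liver than in both pancreatic buds.

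Of the regulators, genes of factors known to act on liver or albumin family genes, 1 of 14 compared was higher in the liver than in the ventral bud, against 11.4% of all genes, and 6 were lower, against 29.6%. With the 47 liver cells that had plasma protein genes, an alternative added after the data had been seen, 4 were higher, against 21.7%, and 4 lower, against 25.7%. The one higher was Hnf4a, a main hepatocyte factor, at 2.87 ± 3.99 against 1.27 ± 2.55, and at 4.73 ± 4.199 in the 47 cells. Among the lower were Foxa2 (1.29 ± 2.91 against 5.70 ± 3.46) and Onecut1 (0.49 ± 1.56 against 4.13 ± 3.18), which stayed lower in the 47 cells, at 2.15 ± 3.51 and 0.81 ± 1.95. Hhex was lower over all 78 liver cells (3.46 ± 4.23 against 5.56 ± 3.96) but had 5.20 ± 4.23 in the 47, a difference of under 1. Prox1 turned from lower, at 8.64 ± 4.199 against 9.76 ± 1.03, to higher, at 11.42 ± 0.92. Tbx3 and Cebpa, which differed by under 1 over all liver cells, were higher in the 47, at 3.78 and 1.70 against 1.75 and 0.66. Zbtb20 and Zhx2, known repressors of Afp after birth, had means of 0.78 and 0.25 in the liver against 2.53 and 0.90 in the ventral bud. They were detected in 3 and 2 of the 47 cells. Cebpa was detected in 11 liver and 3 ventral cells, Tbx3 in 25 and 7, and Nr5a2 in 19 and 13.

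Between dorsal and ventral bud 6 of 14 regulators were higher in the ventral bud, against 3.88% of all genes, and 1 was lower, against 37.2%. Hhex differed most, at 5.56 ± 3.96 against 0.52 ± 1.79, and Gata4 was the lower one, at 1.49 ± 3.20 against 3.36 ± 3.98. Foxa1, Foxa3, Onecut2, Gata6 and Prox1 stood at 1.06, 2.29, 3.51, 2.99 and 9.76 in the ventral bud and at 2.01, 1.83, 3.32, 1.28 and 8.92 in the dorsal bud. Cebpb was at or near 0 in all groups.

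The plasma protein genes, taken as a list, were higher in the groups where Afp was. From the dorsal to the ventral bud 9 of 9 compared were higher, against 3.88% of all genes, with a median difference of 4.61 against -0.71 for all genes. The largest differences were those of Itih2 (6.46), Ambp (6.13), Ttr (4.79) and Apoa2 (4.63). From the ventral bud to the liver 11 of 15 were higher, against 11.4% of all genes, and 3 lower, against 29.6%, with a median of 3.30 against -0.49. Apoa1 (6.04), Serpina6 (5.90), Serpind1 (5.06) and Fga (4.72) differed most. The 3 lower were Ttr (6.68 ± 5.29 against 8.02 ± 2.82), Ambp and Vtn. In the 47 liver cells, which these same genes chose, Ttr and Ambp were instead higher, at 10.80 ± 1.36 and 11.48 ± 1.42 against 8.02 and 9.89, and Vtn stood at 6.89 against 7.06. Apoa1, an apolipoprotein gene, resembled Alb in liver and ventral bud, with 48 of 78 and 3 of 27 cells. Unlike Alb, it also had reads in the foregut and dorsal bud, with means of 0.38 and 0.33. These groups differ in their share of cells with at least 3 epithelial genes, of mesenchymal cells and in depth, and the part of these in the differences was not tested.

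Receptor genes for these proteins were detected in few liver cells, but how this compared with the other groups differed by gene. Cubn was detected in at most 1 cell of each other group. Lrp1 and Dab2, also listed with the uptake receptors, were detected in 15.4% and 10.3% of liver cells, their lowest shares of any group. The next lowest were 44.4% in the ventral bud for Lrp1 and 25.6% in the dorsal bud for Dab2. Cubn and Lrp2, which encode the uptake receptors cubilin and megalin for the vitamin D-binding protein and albumin, were detected in 0 and 1 liver cells, and Lrp2 was highest in the foregut (1.81 ± 2.91, 22 of 82 cells). Fcgrt, the gene of the receptor that recycles albumin, was found in 11 liver (14.1%) and 25 E14.5 cells (34.2%). Its shares in foregut, ventral and dorsal cells were lower, at 9.76%, 7.41% and 4.65%. Vdr, the vitamin D receptor gene, was detected in 3 dorsal and 4 E14.5 cells and in no ventral or liver cell. Among genes for enzymes of later hepatocytes, Ass1, which encodes a urea cycle enzyme, was detected in 20 of 78 liver cells, all among the 47, against 3 of 27 ventral and 14 of 86 dorsal cells. Hpd was detected in 1 liver cell. Arg1 was detected in 7 of 78 liver cells and in 78 of 86 dorsal cells.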

How the data were processed

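The authors deposited 1 table of log2 values for 20474 genes and 346 cells, whose empty entries were set to 0. Per the submitters' processing notes, STAR 2.5.3, Cufflinks and Cuffdiff 2.2.1 were used on GRCm38. Not given in the sources used here were the read counter, annotation release and normalization. The table's unit, log2(reads / size factor + 1), was settled from the values. Groups came from the titles. Since the labels name no animal, a group is 1 sample: means and SD over cells, exact Clopper-Pearson intervals at 95%, and no test. A share of 0 is given with 3 divided by the number of cells as its limit. Genes with a mean of at least 1 in either group were compared. Some genes are not reported here and were left out of the lists. Genes named are the members, all others of the locus and regulator lists, up to 4 of each other list by size of difference, and the 5 most correlated genes. Other genes, among them the markers set beside positive cells, were chosen after their values had been seen. Promoters are from RefSeq and 1 gene name with 2 rows was left out of comparisons. The members and lists were chosen with earlier results of these data known. No doublet caller was run. The code was tested on simulated data. Python 3.11.15, numpy 2.4.6, pandas 2.3.3 and scipy 1.17.1 were used. Other scalings, limits, pseudocounts and cell filters were tried.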

Additional observations from a re-analysis of the deposited data

How the results depend on the processing

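Alternatives changed no direction of a difference of Alb, Afp or Gc of at least 1 between groups. Of 114 values of the differences 109 moved by less than 1 SD over cells, but that is a loose measure. The SD, pooled over the groups compared, is wide where they mix cells with and without the gene. Even the change of Afp between liver and ventral bud from 2.16 to 7.78, given below, is among the 109. The limits are the 27 ventral cells, the single plate per group and the mix of cell types. With cells of at least 3 epithelial genes, a choice made after seeing the data, the difference of Alb was 9.37 between liver and ventral bud and 9.72 between liver and dorsal bud, and that of Afp between liver and dorsal bud was 13.68. With liver cells of at least 5 plasma protein genes the last was 13.60, and Afp differed by 7.78 between liver and ventral bud in place of 2.16. With these liver cells Ttr, Ambp and Prox1 turned from lower to higher than in the ventral bud, by 2.78, 1.59 and 1.67 in place of -1.34, -2.91 and -1.11. Without cells that had markers of another cell type, Afp differed by 2.31 between ventral bud and foregut, and Gc by 0.37. With cells of at least 2000 genes, Afp differed by 3.83 between liver and ventral bud. A pseudocount of 10 brought the 5.82 of Afp between the buds to 3.97 and the -2.12 of Gc between liver and ventral bud to -1.32. With cells of at least 3 epithelial genes alone, the share of Alb cells and of Afp cells in the liver was 100% each, of 13 cells. That of Afp in the foregut was 33.3%. At the strictest limit of detection tried, Afp was detected in 0% and Gc in 2.33% of dorsal cells. The share of dorsal Gc cells with Afp was 12.5% at 32 normalized reads and 0% at the strictest limit. In the ventral cell with Alb, the log2 ratio of Afp to Alb per kilobase was 0.035 by the longest transcript and -0.47 by the union of exons. Within the 47 liver cells, the correlation of Alb with Afp was -0.0081 without the cell of 7 plasma protein genes. Scaling by total reads or by median ratios shifted the median of all genes between liver and ventral bud from -0.49 to -0.66 and -0.70. No paired analysis was possible because the results come from no test and the cells carry no shared number.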
